A study of Mus musculus with 6 samples.

Results

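Ring1b peaks found in intestinal stem cells and not in hair follicle stem cells numbered 2049, of 4439 intestinal peaks and of 11193 peaks in both lists together. An intestinal peak was counted when no follicle peak overlapped it or lay within 1000 bp, which held for 2132 of 4439 intestinal peaks (48.0%). Of those 2132, 83 were set aside because they lay in 100-kb intervals holding at least 5 peaks of each list, 26 of them also inside the intervals of the 4 Hox clusters. Among the 3873 intestinal peaks outside such intervals, the 2049 made up 52.9%. The members were chosen by the presence of peaks in both lists, so these shares describe the choice and are not a finding.

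The study measured where Ring1b sits on DNA by ChIP-seq, which sequences the fragments pulled down by an antibody, in 1 library of intestinal stem cells and 1 of hair follicle stem cells. Both libraries came from C57BL/6 mice labelled wild type, described in the protocols as carrying intact Ring1a and Ring1b with an Lgr5 reporter. Live single cells were sorted for the green fluorescence driven by Lgr5, a receptor made by stem cells of the crypt base and of the follicle. Each ChIP took 2500000 cells and 10 µg of an antibody made in the laboratory, and the skin was taken with follicles synchronised in their growth phase. Age, sex, the number of animals and the purity of the cells are not stated in the labels, and intestinal RNA was not analysed here, so the cell label rests on the sort. The series also holds RNA-seq of follicle cells, which was not used because its gene names carry no position.

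Ring1b is a ubiquitin ligase and the catalytic core of Polycomb repressive complex 1 (PRC1), the complex that marks histone H2A and keeps developmental genes silent. PRC1 is recruited mainly to unmethylated CpG islands at gene starts, either by reading the histone H3 methylation placed by PRC2 or through variant subunits that bind such islands directly. In the gut the complex is known to be needed for stem cells to persist, and in both tissues it holds back transcription factors of other lineages. Its strongest targets are known as domains that run over many kilobases. Positions below are on mouse build mm9. An mm9 sequence or gene annotation was not used here, so regions are given by position without gene names or bases.

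The intestine-only peaks were short and of modest height. Their fold over the caller's background, the authors' own value for each peak, had a median of 5.60, with quartiles at 4.93 and 6.27, and the whole set ran from 2.51 to 11.5. Only 60 of 2049 (2.93%) reached a fold of 8 and 5 reached 10. The −log10 of the q-value, the caller's adjusted measure of confidence, had a median of 5.08 and passed 10 in 59 peaks (2.88%). The median width was 256 bp, 339 peaks (16.5%) had the shortest width in the list, 200 bp, and 7 were at least 1000 bp wide. In all they covered 615.7 kb, and in 79.4% the summit lay in the middle 50% of the peak.

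Many of the folds lie on coarse steps, although the members had 335 distinct folds. The commonest folds lay 0.448 apart, and 42.6% of the intestine-only peaks had a fold that was a whole multiple of this step within 0.01 of a step. The fold 5.38 alone was shared by 188 peaks, 5.82 by 148 and 4.93 by 123. A single step equalled 8.0% of the median fold, so neighbouring ranks among typical members are not separated by these values. The number of reads behind a peak is not in the list, so depth is unknown, and no interval can be put on a single fold.

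The 1824 intestinal peaks that did have a follicle peak within 1000 bp, counted outside the same intervals, were the nearest set for comparison because their values come from the same list. Their median fold was 5.82, their median −log10 q 5.30 and their median width 284.5 bp. The middle of the distributions therefore lay close together, while the upper ends did not: 7.40% of shared peaks reached a fold of 8 against 2.93% of intestine-only peaks, and 15.2% of shared peaks were at least 500 bp wide against 7.22%. The highest fold was 25.5 among shared peaks and 11.5 among intestine-only peaks. Peaks of 1 library are not replicates, so no test was made, and Wilson 95% intervals on shares cover counting error only.

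**Figure D1:**
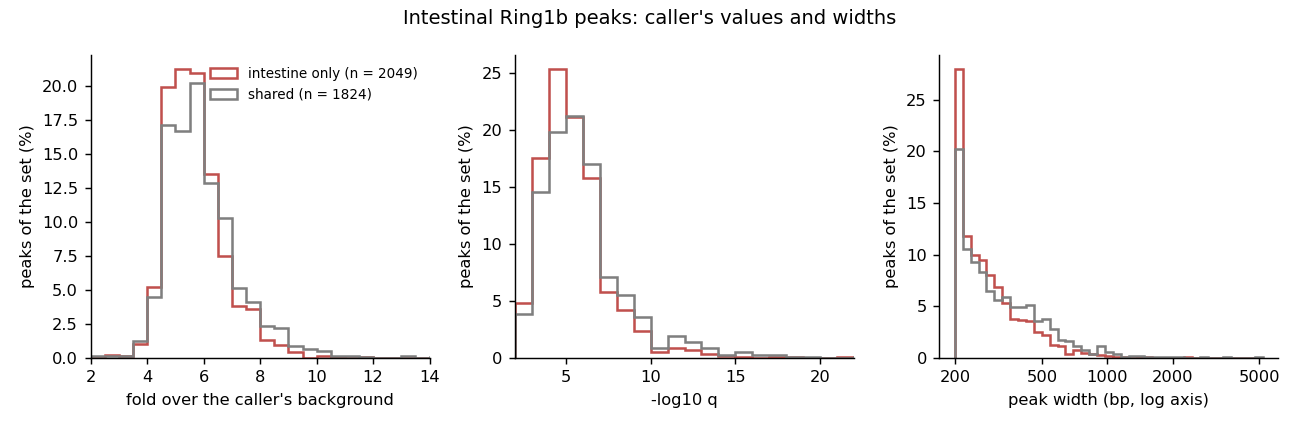
Histograms of the fold, of −log10 q and of the width in bp (log axis) for 2049 intestine-only peaks (red) and 1824 shared peaks (grey), each as a percentage of its own set. The bodies overlap and the shared set has the longer upper tails; 6 peaks with a fold above 14, none of them intestine-only, and 15 with −log10 q above 22, 1 of them intestine-only, lie beyond the axes.

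The share without a follicle peak was lower among stronger intestinal peaks. It was 57.6% (Wilson 95% interval 53.7 to 61.4) at −log10 q from 3 to 4 and 59.0% (55.7 to 62.2) from 4 to 5. From 6 to 8 it was 50.1% (46.8 to 53.4), and from 8 to 10 it was 44.9% (39.3 to 50.5). Between 10 and 15 it was 35.8% (28.5 to 43.8), and of the 44 peaks from 15 upward 6 were intestine-only, or 13.6% (6.40 to 26.7). Up to a −log10 q of 5 the share was thus 57.6% to 59.0%, above the 52.9% of all kept peaks, and each class beyond 5 had a lower share than the class before it.

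Among wider peaks the share was also lower, though not from every class to the next. Of the 524 peaks with a width of 200 bp, 64.7% (60.5 to 68.7) were intestine-only, and the share was 55.1% above 200 and up to 250 bp and 57.3% above 250 and up to 300 bp. It was 52.0% above 300 and up to 400 bp and 43.7% above 400 and up to 500 bp, and of the 422 peaks wider than 500 bp, 34.8% (30.4 to 39.5) were intestine-only. Width and confidence rise together, so the widths were also set side by side within classes of −log10 q. From 3 to 4 the median width was 230 bp for 360 intestine-only and 241 bp for 265 shared peaks. From 6 to 8 it was 278 bp for 443 and 318 bp for 441 peaks, and from 10 to 15 it was 457 bp for 53 and 523 bp for 95. The intestine-only median was the lower in each of the 8 classes. The difference was largest from 15 upward, where it was 743 bp for 6 intestine-only and 905.5 bp for 38 shared peaks.

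**Figure D2:**
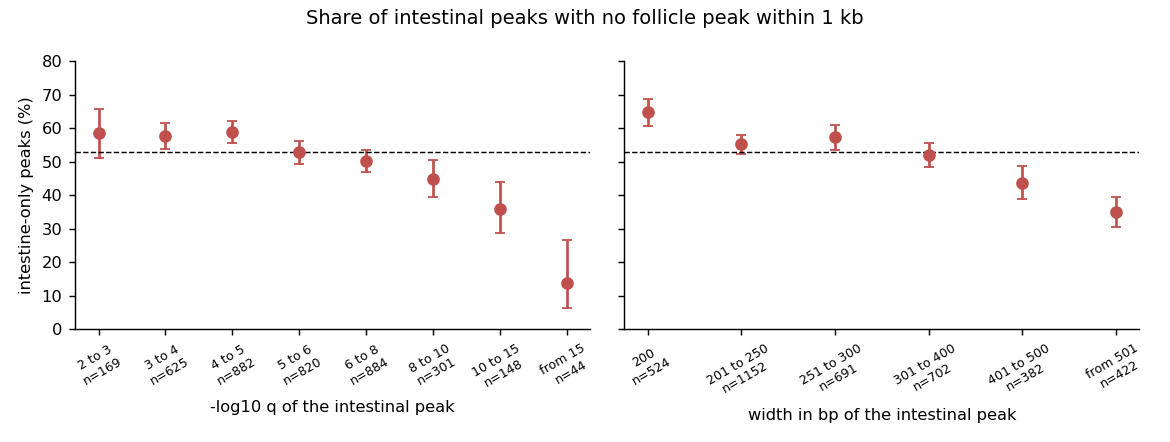
Percentage of intestinal peaks that are intestine-only by class of −log10 q (left) and of width in bp (right); points are shares, bars Wilson 95% intervals and the dashed line the 52.9% of all 3873 kept peaks. The share runs from 58.6% to 13.6% along −log10 q and from 64.7% to 34.8% along width.

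The gap to follicle peaks, which the selection set above 1000 bp, is given as a description, with no expected value for other positions beside it. The gap to the nearest follicle peak had a median of 50.7 kb (order-statistic 95% interval 46.7 to 54.9), with quartiles at 19.2 and 124.3 kb. A follicle peak lay within 10 kb of 317 members (15.5%), within 100 kb of 1426 (69.6%) and within 1 Mb of 2021 (98.6%). In the opposite direction, the 4342 peaks found in follicle cells only lay a median of 130.8 kb from an intestinal peak, but the lists hold 6754 and 4439 peaks, so these medians cannot be compared with each other. Of the 317 close members, 158 had as their nearest follicle peak one that itself had another intestinal peak within 1 kb, and for 159 (50.2%) the nearest follicle peak was in follicle cells only. Of the 1732 members farther away, the nearest follicle peak was in follicle cells only for 1096 (63.3%). For comparison, 4342 of all 6754 follicle peaks were in follicle cells only and outside the intervals set aside. The counts of 159 and 1096 did not leave out follicle-only peaks inside those intervals, so they are not counted alike. Neither share was tested against this composition of the follicle list.

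Peak height was similar at all these distances. The median fold was 5.58 in the 317 members within 10 kb of a follicle peak, 5.59 in 1109 members from 10 to 100 kb, 5.60 in 595 from 100 kb to 1 Mb and 5.82 in the 28 beyond 1 Mb. These medians differ by less than 1 step of the fold. The 5 members closest to the 1000-bp limit had folds from 4.33 to 6.27, and the 5 intestinal peaks just short of it from 2.1 to 5.73. Just inside were chr3:88894986-88895197, with a gap of 1009 bp and a fold of 6.08, chr5:143582013-143582298, at 1018 bp and 4.93, and chr19:25687074-25687273, at 1029 bp and 4.33. Just outside were chr8:74094455-74094809, at 993 bp and 4.57, chr7:29168431-29168630, at 986 bp and 5.73, and chr3:8665612-8665825, at 978 bp and 5.34.

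The farthest members stood in long stretches with no follicle peak. The farthest was chr14:8624427-8624764, 4.55 Mb from the nearest follicle peak, with a width of 338 bp and a fold of 5.75. Its neighbour chr14:9005151-9005494 lay 4.17 Mb away with a fold of 6.72. On chromosome 11 a pair of members lay 3.78 and 3.74 Mb away, chr11:40505777-40505976 with a fold of 4.93 and chr11:40546994-40547222 with 8.96. The latter is the highest fold among the 28 members beyond 1 Mb, and its width was 229 bp. The fifth, chr1:31006732-31007150, lay 3.73 Mb away and had a fold of 7.62 over 419 bp.

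Intestine-only peaks mostly stood singly. No other intestinal peak of any kind lay within 10 kb of 1438 members (70.2%, Wilson 95% interval 68.2 to 72.1), compared with 57.6% (55.3 to 59.8) of shared peaks. Where an intestinal peak did lie that close, for 611 members, the nearest was another intestine-only peak in 506 cases (82.8%) and a shared peak in 105. Of all kept intestinal peaks, 52.9% were intestine-only. The rule sets the class by distance to follicle peaks, so near neighbours tend to share a class. No matching count was made for shared peaks. Single members and members with company had median folds of 5.58 and 5.62 and median widths of 255 and 259 bp. The median gap to a follicle peak was 68.2 kb for single members and 24.9 kb for the rest. This contrast is partly set by the rule, since a shared peak has a follicle peak within 1000 bp. A member near a shared peak is thus near a follicle peak, and single members have no such neighbour.

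**Figure D3:**
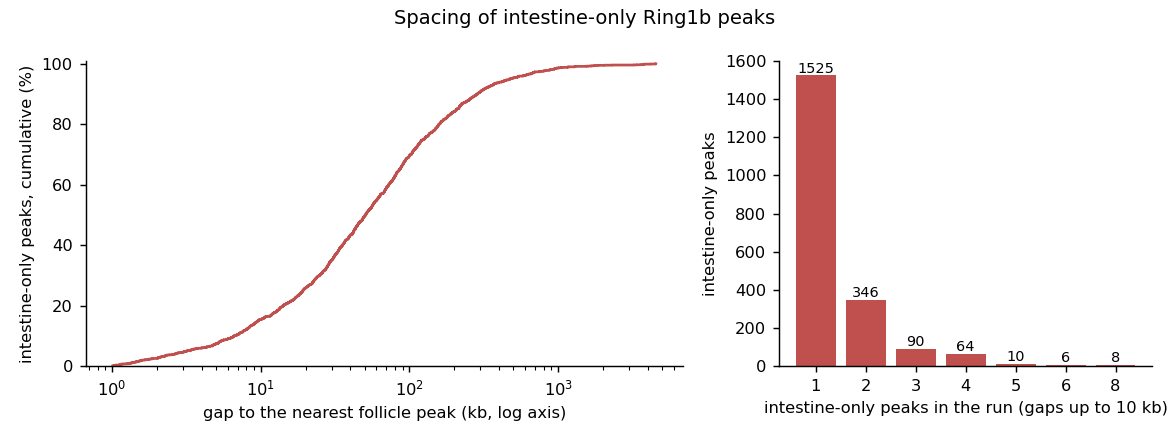
Left, the cumulative percentage of the 2049 intestine-only peaks by gap to the nearest follicle peak in kb (log axis). Right, the number of intestine-only peaks by size of the run they belong to. A run is made of intestine-only peaks with gaps of up to 10 kb. No other intestine-only peak lies that close to 1525 members, some of which have a shared peak nearby, and 524 are in runs of at least 2.

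Joined at gaps of up to 10 kb, the members formed 1748 runs, of which 223 held at least 2 members and 20 held at least 4. The longest by number was chr6:51118949-51126911, with 8 peaks in 7.96 kb and no shared or follicle peak among them. In order along the chromosome their folds were 8.51, 7.62, 6.27, 8.30, 7.62, 4.42, 7.62 and 9.41, and their widths ran from 209 to 1426 bp. With a median fold of 7.62 against 5.60 for all members, this run was taller than the typical member, and it held 2 of the 5 widest. It lies next to follicle binding, since the gaps to the nearest follicle peak were 1.47 to 8.79 kb. Its 100-kb interval held 11 intestinal and 4 follicle peaks, 1 follicle peak short of the count at which such intervals were set aside.

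The run with the highest folds was chr9:123832824-123844786, with 4 peaks in 12.0 kb. Its first peak was 1560 bp wide with a fold of 10.9, and the others had folds of 5.34, 9.45 and 10.2. No follicle peak lay within 205.8 kb of it, and it contributed 3 of the 10 members of highest −log10 q. This run is the last stretch of chromosome 9 to hold a peak in either list.

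Another isolated run was chr6:64678618-64684139, with 4 peaks in 5.52 kb, folds from 5.56 to 7.65 and the nearest follicle peak 937.4 kb away. It belongs to the 1-Mb interval with the most intestine-only peaks and no follicle peak, chr6:64000001-65000000, which held 5. Of the 842 intervals of 1 Mb with an intestine-only peak, 74 held no follicle peak. These 74 held 100 of the 2049 members, and 6 of them held at least 3 members. A shared peak has a follicle peak within 1000 bp by the rule, so such intervals nearly exclude shared peaks.

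Other runs varied in height and in distance from follicle peaks. The run of 6 peaks at chr7:52962980-52980080 spanned 17.1 kb with folds from 4.93 to 7.39, enclosed 1 shared and 1 follicle peak, and lay 2.30 to 6.25 kb from follicle binding. The run of 5 at chr10:126949392-126971190 had folds from 4.92 to 5.96 and lay 87.3 to 108.9 kb away. The run of 5 at chr14:62305776-62308851 packed its peaks into 3.08 kb with folds from 5.34 to 7.17. At chr2:17947368-17950776, 4 peaks in 3.41 kb had folds of 6.61, 8.44, 8.06 and 7.62 and lay 27.7 to 30.9 kb from the nearest follicle peak. The widest member of all, chr2:17967980-17970402 at 2423 bp with a fold of 7.82, followed this run on the same chromosome. The fifth widest, chr11:118883084-118884188, was 1105 bp wide at an ordinary fold of 5.30.

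**Figure D4:**
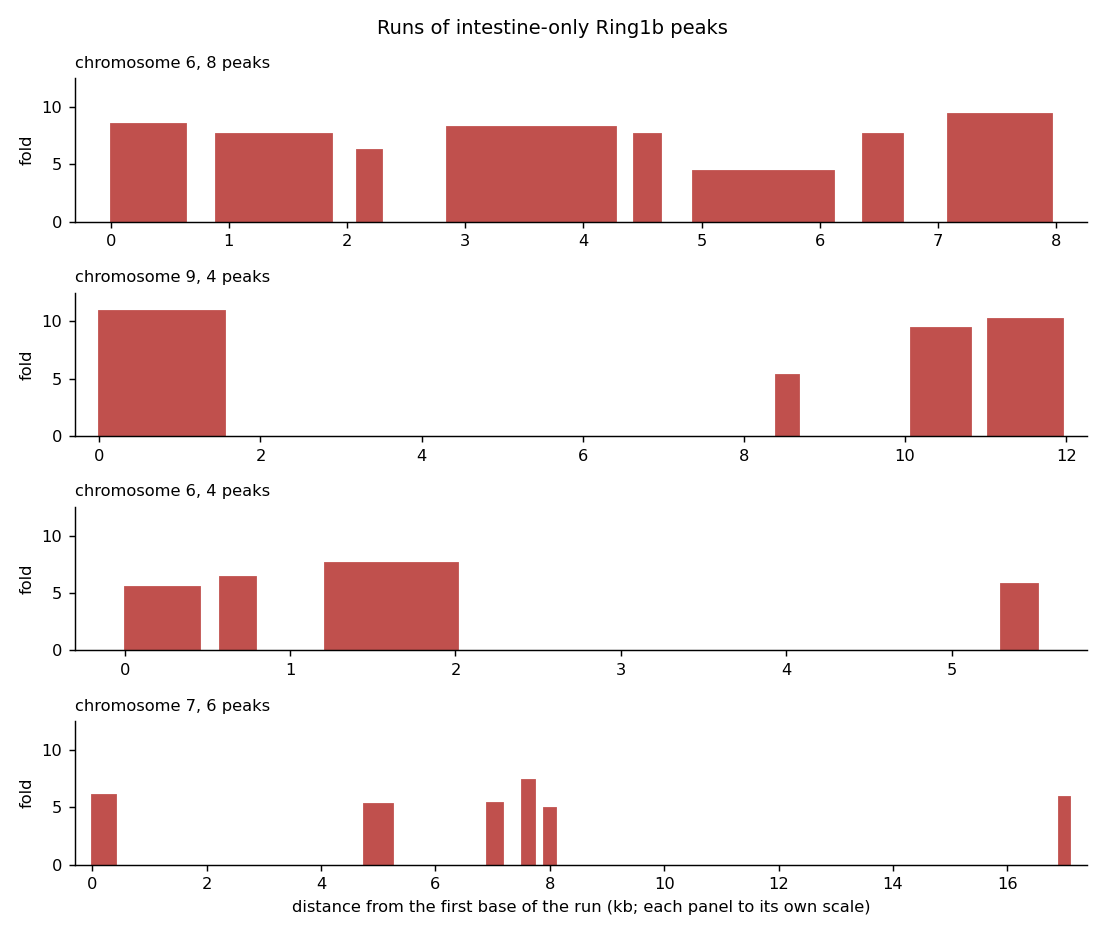
Folds (height) and extents (width, in kb from the first base of the run) of the peaks in 4 runs: 8 peaks on chromosome 6, the 4 of highest fold on chromosome 9, the 4 farthest from follicle peaks on chromosome 6, and 6 on chromosome 7. The first holds 8 peaks of 209 to 1426 bp in 7.96 kb, and the last holds 6 peaks of 200 to 506 bp across 17.1 kb.

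The remaining 100-kb intervals with the most members lay on chromosomes 8 and 19. The interval chr8:73000001-73100000 held 7, with folds from 4.69 to 6.06, and chr8:73300001-73400000 held 6, with folds from 4.92 to 7.79. The former held 8 intestinal and 4 follicle peaks in all, also just short of the count at which such intervals were set aside. The interval chr19:7000001-7100000 held 7, with folds from 4.59 to 6.56. At the scale of 1 Mb the fullest was chr8:73000001-74000000 with 23 intestine-only peaks, beside 7 shared peaks and 3 in follicle cells only. It was followed by chr7:52000001-53000000 with 22 and by chr10:79000001-80000000 and the next megabase with 20 and 19. These crowded intervals held members of ordinary height, with median folds of 5.39, 5.78, 5.27 and 5.81. Across 1603 intervals of 1 Mb with a peak of either list, the number of intestine-only peaks correlated with the number of shared peaks at Pearson 0.49 (Spearman 0.33) and with the number in follicle cells only at 0.29 (0.24). Intestine-only and shared counts come from the same library, and all 3 counts share the same intervals.

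The members of highest −log10 q were of 2 kinds. Most combined a high fold with a high confidence. The tallest, chr7:4691265-4691822, had a fold of 11.5 and a −log10 q of 21.6 over 558 bp, 52.6 kb from the nearest follicle peak. The peak chr17:34740327-34741343 had a fold of 10.2 over 1017 bp, and chr10:76721723-76722094 had 10.3 over 372 bp with no follicle peak within 322.2 kb. The peak chr15:81641164-81641997 had a fold of 9.35 and lay 7.97 kb from a follicle peak.

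The others had a high confidence at an ordinary fold. The peak chrX:166430276-166430800 had the highest −log10 q of all members, 25.8, with a fold of 6.63, and its −log10 p was 31.5 where 165 other members of a fold within 0.25 had a median of 11.3 and a highest value of 13.2. The peak chr17:3084258-3084630 had a −log10 p of 19.6 at a fold of 5.12, where 462 members of like fold had a median of 7.79 and a highest value of 10.1. Both lay close to follicle peaks, at 4.48 and 1.32 kb. The X peak also lay near the last peak on X, which ended at 166.4 Mb. High confidence without a high fold was not confined to members. Some shared peaks with folds below the shared median of 5.82 had a −log10 q above 25.8. The 5 intestinal peaks on the mitochondrial chromosome, left out of the comparison, had folds of 2.07 to 3.09 at −log10 q from 10.6 to 38.3. The cause of this pattern was not tested.

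Chromosomes contributed unequally. Chromosome 7 held 217 members and chromosome 11 held 214, or 10.6% and 10.4% of the set. As a share of the kept intestinal peaks on the same chromosome, chromosome 7 stood highest with 62.5% (Wilson 95% interval 57.3 to 67.5), against 52.9% of all kept peaks, and chromosome 3 at 40.2% (33.1 to 47.8), chromosome 15 at 42.6% (35.4 to 50.1) and chromosome 18 at 39.6% (30.4 to 49.6) stood lowest. The intervals of the other chromosomes included 52.9% apart from chromosome 8, at 59.6% (53.1 to 65.7). Set against the peaks found in follicle cells only, chromosomes 7, 17 and 8 had 0.848, 0.747 and 0.703 intestine-only peaks for each follicle-only peak, whereas chromosomes 12, 18 and 3, the lowest of the numbered chromosomes, had 0.317, 0.319 and 0.325, and X had 0.179. Over all chromosomes there were 2049 intestine-only and 4342 follicle-only peaks, so these ratios also reflect the sizes of the sets. Peaks of a chromosome can share a domain and are not independent, so the Wilson intervals are too narrow to serve as a test.

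The X chromosome held 10 members, 0.488% of the set (0.265 to 0.896), compared with 0.439% of shared peaks and 1.29% (0.995 to 1.67) of peaks in follicle cells only. Neither list holds a row on the Y chromosome. The 10 X members had folds from 3.46 to 7.62, and a pair of them were neighbours at chrX:166430276-166430800 and chrX:166432445-166432680.

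**Figure D5:**
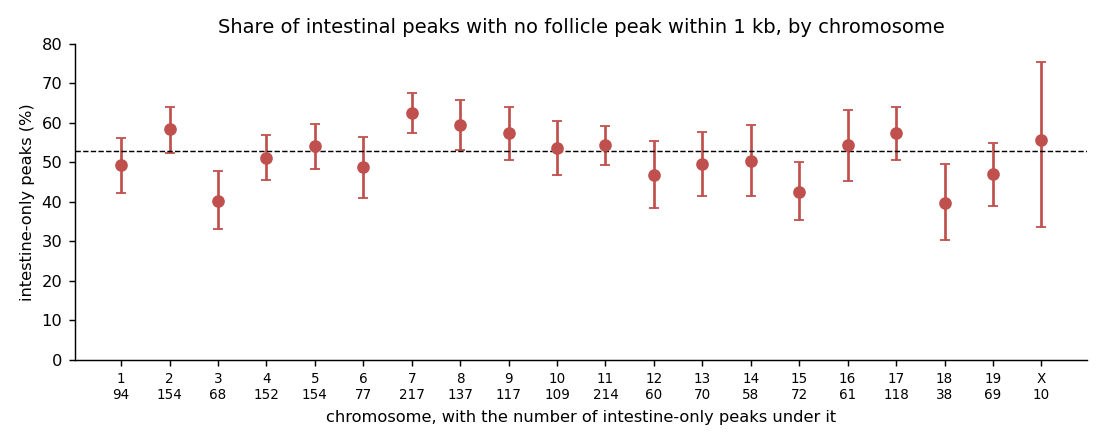
Percentage of the kept intestinal peaks on each chromosome that are intestine-only; points are shares, bars Wilson 95% intervals, the dashed line the 52.9% of all kept peaks, and the lower number under each chromosome its count of intestine-only peaks. The intervals of chromosomes 7 and 8 lie above the line, those of chromosomes 3, 15 and 18 below it, and X, with 10 members, has the widest interval.

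Absence from the follicle list means only that the authors' caller placed no peak there at their threshold. The lowest −log10 p was 5.04 in the intestinal and 5.07 in the follicle list, and signal under it is not in the files. With 1 library per tissue, a difference between tissues and a difference between libraries cannot be told apart.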

How the data were processed

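Ring1b ChIP-seq peak lists of 1 intestinal and 1 follicle stem cell library were used. The submitters' processing notes name Bowtie 1.2.2, Picard 1.62, MACS2 2.1.1 and build mm9. Their roles and settings, the control and the handling of duplicate reads are not stated in the labels. The lists that the authors deposited give each peak a fold ratio relative to the caller's background, with −log10 values of the p-value and the q-value. The deposited score was, in every row, 10 times the −log10 p rounded down, and was not used further. Fold and q were compared only within the intestinal list. No rows of a list touched each other.

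Gaps, runs and shares were computed in Python 3.11.15 with pandas 2.3.3 and scipy 1.17.1. The gap function was tested on simulated intervals. Shares have Wilson 95% intervals and medians order-statistic 95% intervals, both for counting error only. Peaks named were those highest in −log10 q, widest, farthest from follicle peaks, nearest the 1000-bp limit, and the fullest 100-kb intervals, with ties taken by position. Runs, 1-Mb intervals and the comparison at like fold were added after values were seen. The members and this rule were chosen with earlier results of these data known. No test was made. Tables on another build were not used.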

Additional observations from a re-analysis of the deposited data

Results flagged for a closer look

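The intestinal list holds 5 peaks on the mitochondrial chromosome, outside the comparison because that chromosome was left out, and the follicle list holds 0. They drew attention as signal in rows that no comparison used. Their folds were low, 2.07 to 3.09, at −log10 q from 10.6 to 38.3. The corresponding level in other libraries of intestinal cells was not analysed here.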

How the results depend on the processing

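Of 69 values recomputed under 10 alternatives for 7 results, 54 moved by less than their 95% interval (for the number of peaks, by less than 1.5 times) and 15 moved further. With intestinal peaks kept only at a −log10 q of at least 5, the set shrank to 1074, with a median fold of 6.26, a median −log10 q of 6.04, a median width of 282.5 bp and 79.1% with no other intestinal peak within 10 kb. The median −log10 q must rise under such a threshold. Peaks dropped by it no longer count as neighbours, which favours a higher share standing singly. The median gap to a follicle peak was 34.7 kb when only overlap counted, 57.2 and 67.9 kb with limits of 5000 and 10000 bp, 64.0 kb with follicle peaks kept only at a −log10 q of at least 5, and 56.7 kb when intervals with 3 peaks of each list were set aside. Counting only overlap must lower this median and wider limits must raise it, because they admit or remove the smallest gaps. The share standing singly was 65.7% by overlap only and 72.9% and 76.7% with the wider limits. It was 73.5% with intervals of 3 peaks set aside and 67.6% with none set aside. Merging touching rows could change nothing, since none touch, so its values among the 54 were fixed in advance. The share on X or Y has no value on chromosomes 1 to 19. No paired analysis was possible because the results come from no test and each tissue has 1 library, so no replicate could be left out either.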
